A study of Mus musculus with 6 samples.

Results

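The genes described here encode the inhibin and activin subunits, their antagonist follistatin, the activin receptors, and anti-Mullerian hormone with its receptor. They were taken by symbol: Inha, Inhba, Inhbb, Fst, Acvr2a, Acvr2b, Acvr1b, Amh and Amhr2. All 9 were found, each once, among the 54532 genes of the deposited count table. Inhibins and activins are dimers of the TGF-beta family that share beta subunits. An alpha subunit (Inha) paired with a beta subunit (Inhba or Inhbb) gives inhibin, which Sertoli cells secrete and which lowers the release of follicle-stimulating hormone from the pituitary. Paired beta subunits give activin, which signals through a type II receptor (Acvr2a or Acvr2b) and the type I receptor Acvr1b to SMAD2 and SMAD3, and which follistatin binds and blocks. Anti-Mullerian hormone (Amh) is made by immature Sertoli cells, makes the Mullerian ducts regress in the male embryo, and acts through its own type II receptor, Amhr2.

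Whole-testis RNA of mice was sequenced in 3 wild-type (WT) libraries and 3 libraries from testes with a knockout of 1700052I22Rik (KO), a testis-specific long non-coding RNA gene, to ask what that gene does in spermatogenesis. For strain, age and the extent of the deletion, the sources used here give nothing. No label ties a replicate to an animal of its own; a p-value here reflects only the spread among these libraries, which may be technical. Whole testis is mostly germ cells, so transcripts of Sertoli and Leydig cells come from a minority of the RNA, and fewer cells of a type and less RNA per cell cannot be told apart.

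Library totals ran from 17635045 to 18117593 counts. The targeted gene stood at 10.3, 9.75 and 12 CPM (read counts scaled to the size of the library) in WT 1, WT 2 and WT 3 and had 0 reads in the KO libraries, at least 189-fold lower when 3 counts are allowed over the KO group; this bound covers counting error only. Markers of the labelled tissue were present, with the 8 spermatid markers summing to between 11100 and 14700 CPM in each library, and the 6 epididymis markers summed to at most 1.02 CPM, with Lcn5, Lcn8 and Spink5 at 0. The 16 Sertoli cell markers were all detected and summed to 2220 to 2510 CPM in WT and 2090 to 2250 in KO. WT 1 and KO 2 stood apart from the other libraries on the leading principal component (-22.8 and -30.2, against 6.98 to 17.5), and they also had the lowest median of the Leydig cell markers. Relative to the WT mean, the median of the 9 Leydig cell markers was -1.09 in WT 1 and -0.74 in KO 2 on the log2 scale, against 0.60, 0.37, 0.23 and 0.00 in WT 2, WT 3, KO 1 and KO 3. The log2 fold change of each tested member is therefore also given without both libraries.

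The sequences just before the start sites of 3 members are shown because these genes span the range of levels described here: Amhr2, the most abundant, and the pair of beta subunit genes, Inhbb and Inhba, one well detected and the other nearly absent. RefSeq windows were found for 7 of the 9 members. Each run below is the 250 bases before the annotated start in GRCm38.p6 (mm10), on the strand of the gene, and in these 3 genes the RefSeq start matches the gene start of the deposited table. Capitals mark AGGTCA, the half-site bound by nuclear receptors such as SF-1, and TATAAA, the word of the TATA box. Each was searched on both strands as a word only, at any distance from the start. The full cAMP response element TGACGTCA was searched too.
Amhr2, chr15:102445117-102445366, plus strand: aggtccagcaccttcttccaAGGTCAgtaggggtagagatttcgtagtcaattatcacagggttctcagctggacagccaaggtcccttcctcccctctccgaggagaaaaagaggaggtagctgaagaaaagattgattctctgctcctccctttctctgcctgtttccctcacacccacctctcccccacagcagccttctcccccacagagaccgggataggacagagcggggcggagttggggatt
Inhbb, chr1:119422249-119422498, minus strand: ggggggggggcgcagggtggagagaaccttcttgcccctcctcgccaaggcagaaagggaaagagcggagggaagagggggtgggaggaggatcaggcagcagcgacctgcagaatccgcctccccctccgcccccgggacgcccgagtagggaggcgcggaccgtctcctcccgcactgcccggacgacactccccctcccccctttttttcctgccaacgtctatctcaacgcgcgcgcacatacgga
Inhba, chr13:16011601-16011850, plus strand: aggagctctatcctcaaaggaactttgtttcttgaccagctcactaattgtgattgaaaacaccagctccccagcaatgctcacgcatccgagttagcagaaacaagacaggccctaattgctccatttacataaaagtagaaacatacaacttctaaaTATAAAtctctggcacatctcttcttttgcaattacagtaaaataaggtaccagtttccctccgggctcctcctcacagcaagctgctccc
The Amhr2 window holds 1 AGGTCA, which begins 230 bases before the start, and 14.0% of 32851 mouse promoter windows of this length hold that word. The Inhba window holds 1 TATAAA, 91 bases before the start, a word in 12.4% of windows, and none of the 3 holds TGACGTCA, which is in 1.55%. The beta subunit windows differ in base composition, with 68.0% G and C and 21 CpG in Inhbb against 43.2% and 3 CpG in Inhba. The medians over all windows are 52.4% and 6 CpG. Composition did not follow level among the members. The window of Amhr2, the most abundant, has 55.2% and 5 CpG, and that of the scarcer Acvr2b has 72.8% and 24 CpG. For Inha the RefSeq window begins inside the deposited gene, its start site lying 532 bases past the deposited start, so it is not shown.

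Levels of different genes were compared per kilobase of the gene length in the table. Amhr2 was the most abundant member and the beta A subunit gene Inhba the scarcest. Over the 6 libraries Amhr2 lay between 113 and 155 CPM per kilobase and Inha between 60.4 and 81.7, so the alpha subunit stood second. Inhbb followed at 6.80 to 8.99. The type I receptor Acvr1b (4.45 to 4.89) and the type II receptor Acvr2a (3.93 to 5.61) overlapped and could not be ordered. Amh was at 1.42 to 2.60, Acvr2b at 0.586 to 1.05, Fst at 0.144 to 0.306 and Inhba at 0.00888 to 0.0948. Apart from Acvr1b and Acvr2a, neighbours in this order did not overlap in any pair of libraries. In WT and KO libraries alike, transcripts of the anti-Mullerian hormone receptor were thus far more abundant than those of the hormone. Alpha subunit transcripts likewise exceeded those of either beta subunit.

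**Figure D1:**
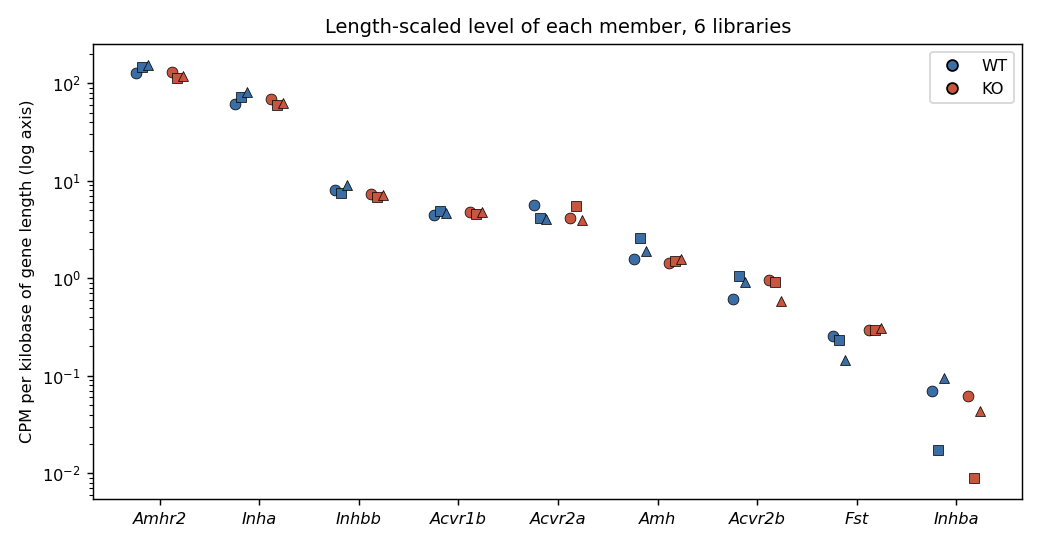
Level of each of the 9 members in every library, as CPM per kilobase of gene length on a log axis, ordered by mean; blue points are WT and red points KO libraries. Amhr2 and Inha lie above 60 in all 6 libraries, Acvr1b and Acvr2a overlap, and Inhba lies below 0.1 in all 6.

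KO was compared with WT to see whether transcripts of this hormone system differed in whole testes lacking the targeted transcript. None of the 8 members that passed the low-count filter passed the quasi-likelihood test of edgeR, with p adjusted by Benjamini-Hochberg over all 19320 genes tested (adjusted p from 0.965 to 0.995), where 0.00518% of genes were called, namely the target alone. DESeq2 and limma-voom called 0 members as well. At an unadjusted p under 0.05 there were 2 members, Amhr2 and Inhbb, both with lower means in KO, against 4.63% of all genes (2.22% lower in KO). The groups did not overlap for 2 members, Inhbb on the lower side and Fst on the higher, against 9.32% of all genes (4.63% lower and 4.69% higher). Of the 8, 6 had a log2 fold change below 0 and their median was -0.116, whereas over all genes 50.7% lay below 0 and the median was -0.0025. With 1 library left out the members' median ran from -0.247 (without WT 1) to -0.0728 (without KO 3), with -0.205 without KO 1 and -0.0795 without WT 3, and it was -0.214 without WT 1 and KO 2.

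**Figure D2:**
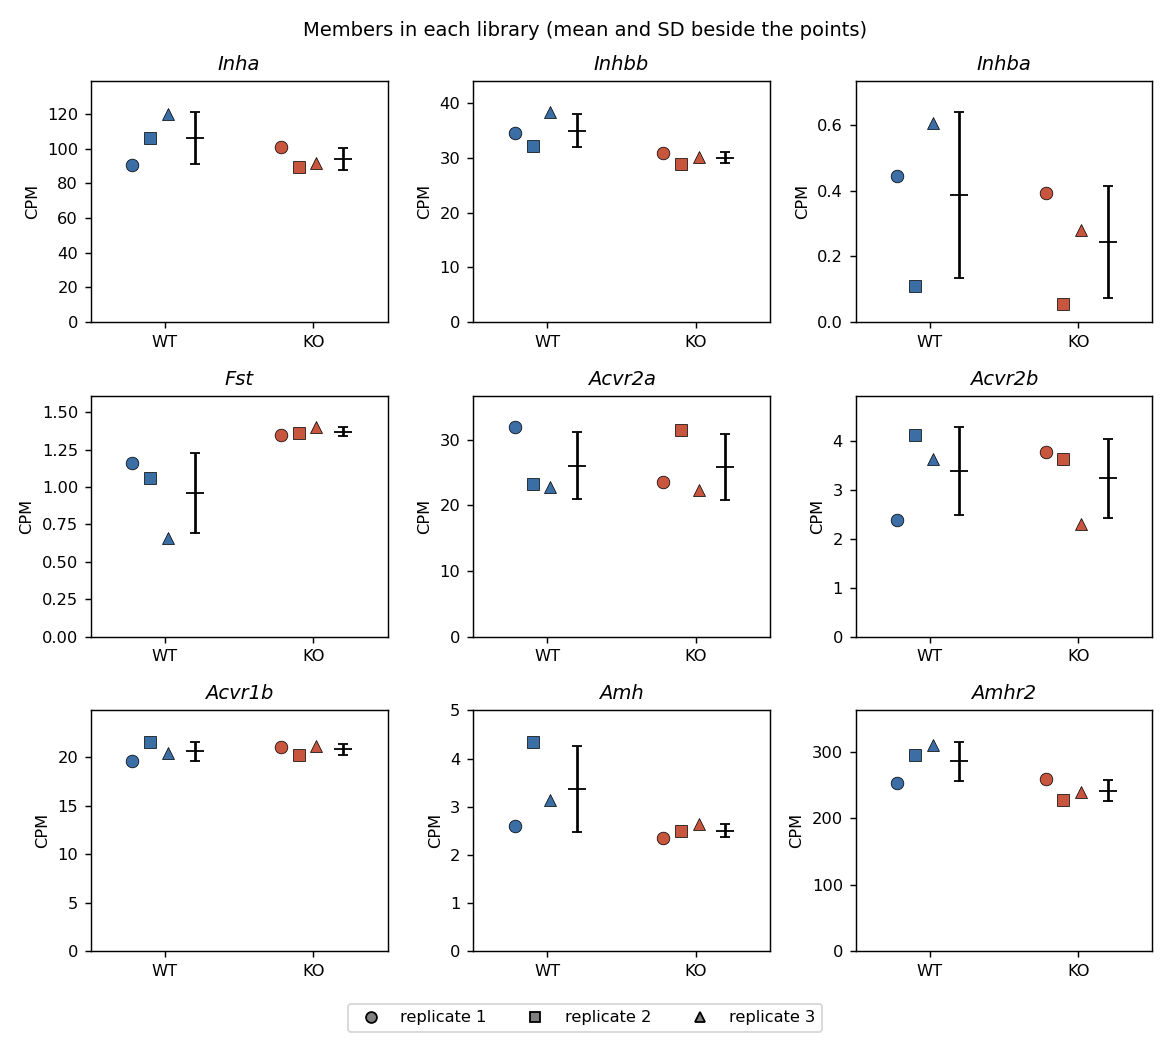
CPM of each member in WT (blue) and KO (red) libraries, with the replicate number as the point shape and the mean and SD of 3 libraries beside the points; every axis starts at 0. The groups separate for Inhbb and Fst only, and Acvr2a is high in WT 1 and KO 2.

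Among the hormone subunits, the alpha subunit gene Inha (ENSMUSG00000032968, chromosome 1, 75507077 to 75510366, plus strand) stood at 90.8, 106 and 120 CPM in the WT libraries 1, 2 and 3 and at 101, 89.1 and 91.9 CPM in the KO libraries 1, 2 and 3. The groups overlapped, since WT 1 lay below KO 1 and KO 3. Its mean of 106 ± 14.8 CPM for WT compared with 94.0 ± 6.28 for KO (SD, n = 3), and the log2 fold change of -0.17 (95% interval -0.38 to 0.05) did not pass the test over all genes in edgeR (adjusted p = 0.965). The interval allows a KO level from 0.766 to 1.03 times that of WT. Without WT 3, the highest library, the log2 fold change was -0.06, without WT 1 it was -0.27, and without WT 1 and KO 2 it was -0.23.

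Inhbb (ENSMUSG00000037035, chromosome 1, 119415465 to 119422248, minus strand), the gene of the beta B subunit, stood at 34.5, 32.2 and 38.3 CPM in the WT libraries and at 30.9, 28.9 and 30.2 in the KO libraries. All 3 KO libraries were below all 3 WT libraries, and KO 1 and WT 2 were the nearest. The means were 35.0 ± 3.06 and 30.0 ± 1.02 CPM (SD, n = 3), a difference of -14.2% and a log2 fold change of -0.22 (95% interval -0.43 to -0.01). In edgeR the unadjusted p was 0.0436 and the adjusted p 0.965, so the difference did not pass. Without WT 3, the highest library, the log2 fold change was -0.15 (unadjusted p = 0.192 in edgeR), and without WT 1 and KO 2 it was -0.20. Over 15 alternatives the adjusted p ran from 0.681 to 1.

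Inhba (ENSMUSG00000041324, chromosome 13, 16011851 to 16031621, plus strand), the beta A subunit gene, had 8, 2 and 11 reads in WT and 7, 1 and 5 in KO. It did not pass the low-count filter and was not tested. The summed 21 WT reads have an exact Poisson 95% interval of 13.0 to 32.1 and the 13 KO reads one of 6.92 to 22.2, for counting error only. These intervals overlap, and a difference was not detectable at this depth.

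The balance of subunits was compared within each library, as reads per kilobase with 1 count added. The Inhbb to Inha ratio was 0.132, 0.106 and 0.110 in WT and 0.106, 0.113 and 0.114 in KO, so Inha exceeded Inhbb in each of the 6. It differed by -0.06 on the log2 scale between KO and WT (two-sided exact permutation p = 0.9, adjusted over 7 ratios 0.9). The Inhba to Inhbb ratio was at most 0.0115 in any library. The log2 difference of Inhba to Inha was -0.40 (exact p = 0.5, adjusted 0.9) and that of Inhba to Inhbb -0.34 (exact p = 0.6, adjusted 0.9). Both rest on a handful of Inhba reads and turn to 0.16 and 0.22 without KO 2. With 3 against 3 the smallest exact p is 0.1, so no ratio could pass 0.05.

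**Figure D3:**
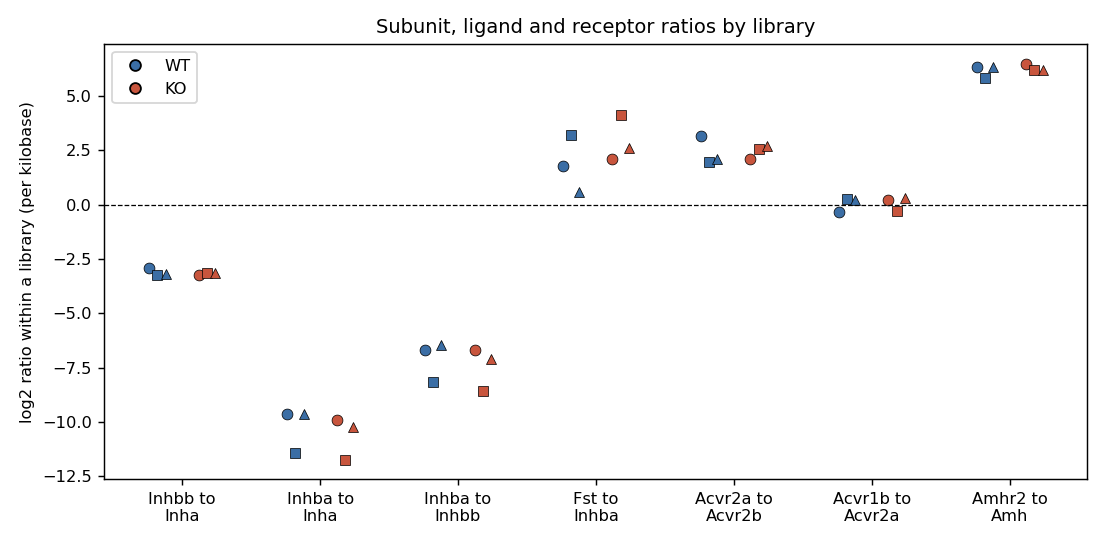
Log2 ratio of length-scaled reads for 7 pairs of members in each library, WT in blue and KO in red, with the replicate number as the point shape; the dashed line marks equal levels. WT and KO points overlap in every pair, and the ratios with the scarce Inhba in them spread most.

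Fst (ENSMUSG00000021765, chromosome 13, 114452290 to 114458951, minus strand), encoding the activin-binding protein follistatin, was scarce, with 21, 19 and 12 reads in WT and 24, 24 and 25 in KO. All KO libraries were above all WT libraries, and the KO values were nearly equal. The means were 0.961 ± 0.266 CPM for WT against 1.37 ± 0.0275 for KO (SD, n = 3), and the log2 fold change was 0.51 with a 95% interval of -0.20 to 1.22, and it did not pass in edgeR (unadjusted p = 0.148, adjusted p = 0.965). The KO spread is below what counting alone would give for about 24 reads, so that SD understates the error. Without WT 3, the lowest library, the log2 fold change was 0.30, and without WT 1 and KO 2 it was 0.68. An annotated antisense gene, Gm47040, shares 115 exonic bases with Fst and had 0 reads in all 6 libraries. The Fst to Inhba ratio differed by 1.09 on the log2 scale (exact p = 0.4, adjusted 0.9), with WT values of 3.40, 9.28 and 1.51 and KO values of 4.35, 17.4 and 6.03. With 1 library left out this difference ran from 0.45 (without WT 3) to 1.77 (without WT 2), and it was 0.45 without WT 1 and KO 2.

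With all libraries the activin receptors had log2 fold changes close to 0, though with wide intervals for the type II receptors. Acvr2a (ENSMUSG00000052155, chromosome 2, 48814109 to 48903269, plus strand), the more abundant type II receptor gene, stood at 31.9, 23.3 and 22.8 CPM in the WT libraries and at 23.6, 31.5 and 22.3 in the KO libraries. WT 1 and KO 2 were high by about the same amount, and the other 4 libraries lay within 22.3 and 23.6. The log2 fold change was -0.01 (95% interval -0.34 to 0.31; edgeR adjusted p = 0.995), and -0.00399 without WT 1 and KO 2. Those are the libraries with the lowest median of the Leydig cell markers, and whether that difference has a part in the Acvr2a values was not tested. Of the exonic bases of Acvr2a, 446 are shared with Orc4 on the opposite strand, a subunit gene of the origin recognition complex, and the strand setting of the counting is not known. Orc4 stood at 21.2, 18.3 and 16.4 CPM in the WT libraries and at 17.6, 21.2 and 19.8 in the KO libraries, so it was also highest in WT 1 and KO 2, by less, and how many reads the pair shares cannot be told from the counts.

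Acvr2b (ENSMUSG00000061393, chromosome 9, 119402118 to 119434995, plus strand), the other type II receptor gene, stood at 2.39, 4.12 and 3.63 CPM in the WT libraries and at 3.77, 3.63 and 2.30 in the KO libraries. The groups overlapped throughout, with a low library in each genotype (log2 fold change -0.06, 95% interval -0.62 to 0.49, edgeR adjusted p = 0.988). Without WT 1 and KO 2 the log2 fold change of Acvr2b was -0.35 (edgeR adjusted p = 0.787), and with 1 library left out it ran from -0.26 (without WT 1) to 0.13 (without KO 3). Acvr1b (ENSMUSG00000000532, chromosome 15, 101174067 to 101213684, plus strand), the type I receptor gene for activin, stood at 19.6, 21.6 and 20.4 CPM in the WT libraries and at 21.1, 20.2 and 21.2 in the KO libraries. It was the steadiest member, its highest library being 1.10 times its lowest. Its log2 fold change was 0.02 with a 95% interval of -0.21 to 0.25, which allows KO levels from 0.864 to 1.19 times WT, and it was 0.01 without WT 1 and KO 2. The sign of these small values depended on single libraries. Acvr2a turned to 0.16, 0.05 and 0.08 without WT 1, KO 1 or KO 3, Acvr2b to 0.10 and 0.13 without WT 2 or KO 3, and Acvr1b to -0.01 without WT 1. The Acvr2a to Acvr2b ratio was 9.04, 3.87 and 4.29 in WT and 4.28, 5.92 and 6.56 in KO (log2 difference 0.05, exact p = 0.9, adjusted 0.9). The Acvr1b to Acvr2a ratio lay between 0.793 and 1.22 in all libraries (log2 difference 0.03, exact p = 0.7, adjusted 0.9).

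Amh (ENSMUSG00000035262, chromosome 10, 80805243 to 80807648, plus strand), a gene known to be turned down in Sertoli cells at puberty, was low in every library. It had 47, 78 and 57 reads in WT and 42, 44 and 47 in KO, or 2.61, 4.35 and 3.14 CPM against 2.36, 2.5 and 2.64. WT 2 was the highest and WT 1 lay just below KO 3, so the groups overlapped. The log2 fold change was -0.43 with a 95% interval of -0.94 to 0.08 (edgeR unadjusted p = 0.0951, adjusted p = 0.965), and it was -0.20 when WT 2 was left out. Leaving out WT 1 and KO 2 gave -0.58. The interval allows KO levels from 0.522 to 1.06 times WT.

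Amhr2 (ENSMUSG00000023047, chromosome 15, 102445367 to 102454633, plus strand), the receptor gene, was read 3997 to 5628 times per library. It stood at 253, 296 and 310 CPM in the WT libraries and at 259, 227 and 240 in the KO libraries. WT 1 lay below KO 1, so the groups overlapped, while WT 2 and WT 3 were above every KO library. The means were 286 ± 29.5 and 242 ± 16.2 CPM (SD, n = 3), a difference of -15.6%. The log2 fold change was -0.24 (95% interval -0.43 to -0.06), with the smallest p of the members in edgeR (0.0124 unadjusted, 0.965 adjusted over all genes). It was -0.28 without WT 1 and KO 2 (adjusted p = 0.369) and -0.18 without WT 3 (unadjusted p = 0.0681 in edgeR), and over all 15 alternatives the adjusted p ran from 0.336 to 1. The Amhr2 to Amh ratio was 79.2, 56.0 and 80.8 in WT and 89.2, 74.0 and 74.1 in KO (log2 difference 0.15, exact p = 0.6, adjusted 0.9).

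**Figure D4:**
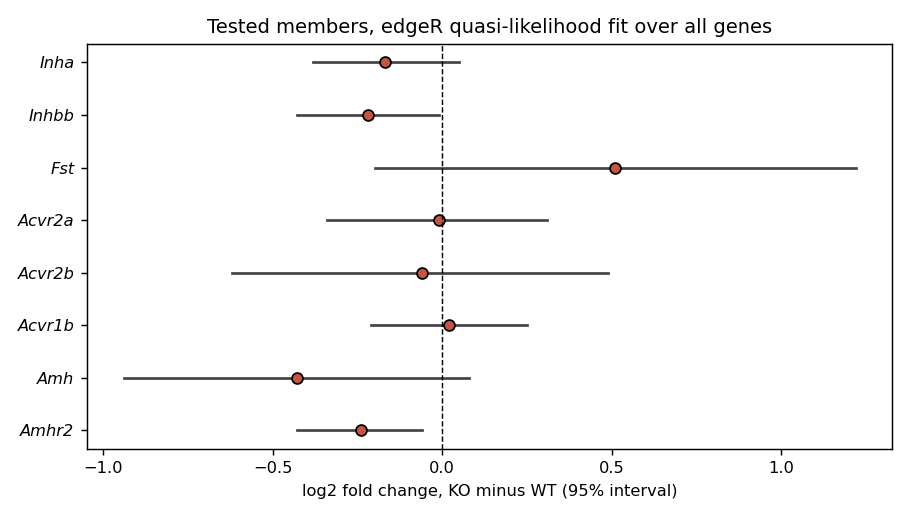
Log2 fold change of KO against WT for the 8 tested members (points) with 95% intervals (lines), from the edgeR fit over all genes; Inhba was not tested. The intervals of Inhbb and Amhr2 lie below 0 before adjustment, those of the other 6 span 0, and Fst has the widest.

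Inha, Inhbb and Amhr2, which Sertoli cells express, were set beside the marker genes of the cell types that could carry them. Relative to the WT mean, Inha was at -0.05, -0.24 and -0.19, Inhbb at -0.17, -0.27 and -0.21, and Amhr2 at -0.14, -0.33 and -0.25 in KO 1 to KO 3 (log2). In WT 1 to WT 3 Inha was at -0.21, 0.01 and 0.20, Inhbb at -0.02, -0.12 and 0.13, and Amhr2 at -0.17, 0.05 and 0.12. Amh, low in every library, was at -0.46, -0.38 and -0.31 and Fst, above 0, at 0.48, 0.49 and 0.53 in KO 1 to KO 3. The median of the 16 Sertoli cell markers was -0.20, -0.07 and 0.01 in the same libraries, and of the markers 10 had a log2 fold change below 0, with a median of -0.0586. That median ran from -0.143 (without KO 3) to -0.0091 (without WT 2) with 1 library left out. Of the most abundant Sertoli cell markers, the secreted chaperone gene Clu had a log2 fold change of -0.12, the protease gene Ctsl -0.13, Aard -0.17 and the cystatin gene Cst9 -0.04, each with an edgeR adjusted p of at least 0.965, and Ctsl was at -0.06 without KO 1. The 8 macrophage markers all had log2 fold changes below 0 (median -0.362, 0 called), with a sum of 93.3 to 124 CPM in WT and 82.9 to 95.4 in KO. All 9 Leydig cell markers were likewise below 0 (median -0.303, 0 called), and their sum ran from 406 to 1090 CPM in WT and 434 to 809 in KO. Their median ran from -0.673 (without WT 1) to -0.112 (without WT 2) with 1 library left out, and it was -0.115 without KO 2 and -0.523 without WT 1 and KO 2. Among them, Insl3 stood at 78.8, 83.8 and 82.6 CPM in the WT libraries and at 55.6, 17.4 and 55.0 in the KO libraries. Unlike the median of the list, Insl3 in WT 1 lay above every KO library. In edgeR its unadjusted p was 0.0039 and its adjusted p 0.965. The part of these cell types in the members' values was not tested. The 5 tested peritubular myoid markers had a median of -0.0235, the 7 endothelial -0.0291, the 7 spermatogonial -0.124, the 8 spermatocyte 0.0322 and the 8 spermatid markers 0.013, with 0 called in each by edgeR, DESeq2 or limma-voom. In edgeR an unadjusted p under 0.05 was found for 2 Sertoli cell, 1 Leydig cell, 4 macrophage and 1 spermatogonial markers, all lower in KO. It was also found for 3 endothelial markers, 2 lower and 1 higher in KO. None of the peritubular myoid, spermatocyte and spermatid markers had one. Over all genes the share was 4.63%, with 2.22% lower in KO.

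**Figure D5:**
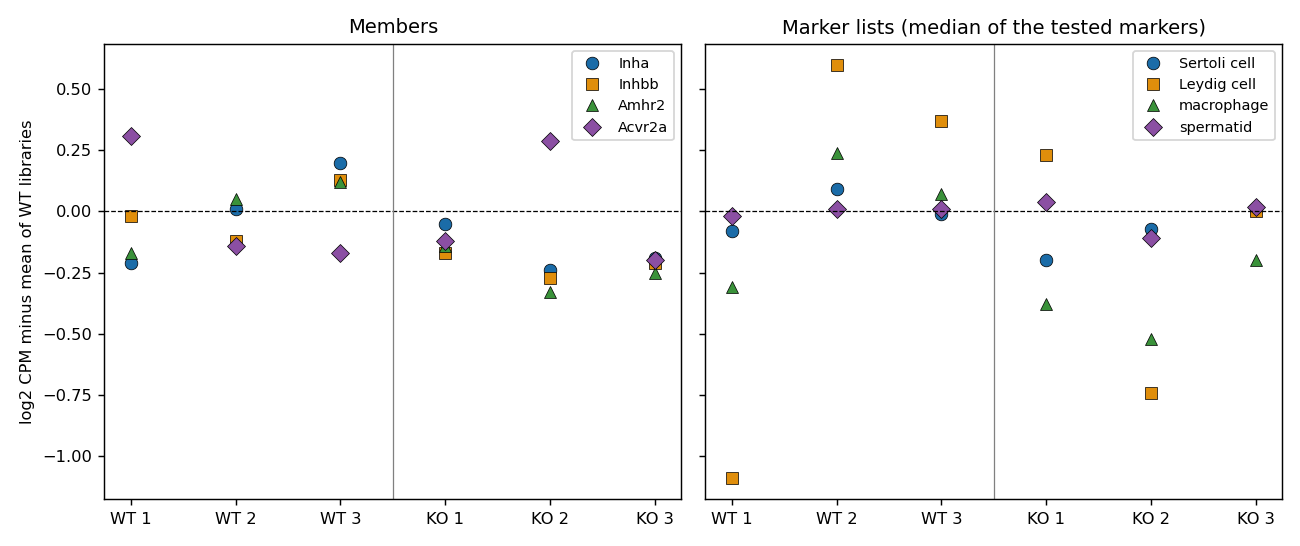
Log2 CPM in each library relative to the mean of the WT libraries for 4 members (left) and for the medians of 4 marker lists (right). Inha, Inhbb and Amhr2 lie below 0 in all 3 KO libraries and also in WT 1 (-0.21, -0.02 and -0.17). Acvr2a is at 0.31 and 0.29 in WT 1 and KO 2, and the Leydig cell markers are lowest in those libraries.

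The rest of the pathway was taken as 5 lists of 55 genes, of which 54 had a read and 46 were tested. In edgeR, DESeq2 and limma-voom 0 were called, 2 had an unadjusted p under 0.05 in edgeR, both with lower means in KO (all genes: 4.63%, with 2.22% lower in KO), which is close to the share over all genes, and 24 lay below 0 and 22 above, with a median of -0.0156. The sign of that median rested on single libraries, as it was 0.0172 without KO 1 and -0.0549 without WT 3. Of the 11 other ligands and binding proteins 4 were tested, and Inhbc, a beta subunit gene of liver, had 0 reads. Tgfbr3, encoding betaglycan, the co-receptor that lets inhibin block activin receptors, stood at 23.7, 19.1 and 24.3 CPM in the WT libraries and at 13.7, 26.2 and 18 in the KO libraries. Its KO values lay on both sides of WT (log2 fold change -0.21, 95% interval -0.61 to 0.18), and the value was -0.02 without KO 1 and -0.50 without KO 2. Fstl3, a relative of follistatin, was at 0.04, Gdf11, an activin-like ligand, at 0.50 and Gdf9, best known as a growth factor of the oocyte, at -0.15; their adjusted p in edgeR was between 0.965 and 0.992. With 1 library left out Gdf11 ran from 0.20 (without KO 3) to 0.82 (without KO 2) and Gdf9 from -0.20 to -0.07 (without WT 3). Fstl3 was more abundant in reads than Fst, with 3.0 to 5.23 CPM over the libraries.

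Of 9 further receptor genes 7 were tested, with 2 below 0 and 5 above and a median of 0.0159. Bambi, a pseudoreceptor that dampens signalling, had a log2 fold change of 0.12, the BMP receptors Bmpr2 and Bmpr1a 0.13 and 0.05, and the TGF-beta receptor Tgfbr2 -0.18. With 1 library left out Bambi ran from 0.04 to 0.18, Bmpr2 from 0.03 to 0.24 and Tgfbr2 from -0.42 to -0.06. Among 14 SMADs and their partners, all tested, 10 lay below 0 and 4 above (median -0.0727). Smad6, an inhibitory SMAD of the BMP branch, stood at 22.9, 30.0 and 21.2 CPM in the WT libraries and at 22.1, 19.4 and 16.8 in the KO libraries. KO 1 lay above WT 3, so the groups overlapped, and the log2 fold change of -0.35 (95% interval -0.65 to -0.04) had an unadjusted p of 0.0303 and an adjusted p of 0.965 in edgeR. Without WT 2, its highest library, Smad6 was at -0.18 with an unadjusted p of 0.222 in edgeR. Ski, a repressor of SMAD targets, had -0.26, Foxh1, a partner of SMAD2 in the nucleus, -0.28 and Smad5, a mediator of the BMP branch, -0.12. With 1 library left out Ski ran from -0.37 to -0.17, Foxh1 from -0.36 to -0.18 and Smad5 from -0.21 to -0.03.

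The 12 regulators known from work on Inha and Amh transcription in Sertoli cells were all tested, with 4 below 0 and 8 above and a median of 0.0453. Nr5a1, encoding SF-1, stood at 37.3, 57.5 and 56.2 CPM in the WT libraries and at 50.4, 41.9 and 45.1 in the KO libraries (log2 fold change -0.14). It was at -0.31 without WT 1 and at -0.03 without WT 2. Gata4, whose factor acts with SF-1, stood at 27.1, 32.9 and 34.9 CPM in the WT libraries and at 28.7, 26.6 and 26.0 in the KO libraries (log2 fold change -0.22, edgeR unadjusted p = 0.0668, adjusted p = 0.965). Nr5a1 and Gata4 were low in WT 1 among the WT libraries, as Inha and Amhr2 were, but not all of the 12 regulators were. Sox9 (17.0, 16.0 and 16.5 CPM in WT 1 to WT 3) and Creb1 (19.5, 13.1 and 13.6) were highest in WT 1. WT 1 also had the lowest median of the Leydig cell markers (-1.09), and whether that has a part in these values was not tested. Dmrt1, a transcription factor of Sertoli cells and spermatogonia, had a log2 fold change of -0.26 (unadjusted p = 0.0471 and adjusted p = 0.965 in edgeR), and Sox8, a relative of Sox9, -0.16. Dmrt1 was at -0.15 without WT 2 (unadjusted p = 0.251 in edgeR), and with 1 library left out Gata4 ran from -0.32 to -0.15 and Sox8 from -0.24 to -0.10. Of the 9 SMAD-responsive genes, all tested, 6 lay below 0 and 3 above (median -0.0999). Pmepa1, a feedback inhibitor of TGF-beta signalling, had -0.42, Id2 and Id3, BMP-responsive inhibitors of differentiation factors, -0.31 and -0.20, and the cyclin gene Ccnd2 -0.17, with adjusted p in edgeR between 0.965 and 0.969. With 1 library left out Pmepa1 ran from -0.59 to -0.26, Id2 from -0.47 to -0.21, Id3 from -0.40 to -0.06 and Ccnd2 from -0.27 to 0.03.

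For the 5 members with a mean of at least 5 CPM, the protein-coding genes with the most similar profile were found among 11026 candidates, by the root mean square distance of log2 CPM over the 6 libraries after centring each gene on its mean. The nearest to Inha were Zbtb17 (distance 0.0216) and Hapln2 (0.0354), those to Inhbb Arhgef11 (0.0351) and Nsun5 (0.0365), and those to Amhr2 Sac3d1 (0.0252) and Arf6 (0.0253). The nearest to Acvr2a, Polr3g (0.0510) and Zfp426 (0.0510), shared its high values in WT 1 and KO 2, with 24.6 and 24.2 CPM of Polr3g there and 17.5 to 19.4 in the others. The flat profile of Acvr1b was nearest to Rab3gap2 (0.0137) and Rbbp4 (0.0141). Of the 11026 candidates, 24 lay within 0.05 of Inha, 17 of Inhbb, 17 of Amhr2, 279 of Acvr1b and 0 of Acvr2a. These counts depend on how flat each member is. The root mean square of the member's own centred profile was 0.0464 for Acvr1b and 0.218 for Acvr2a. A gene with no variation at all would therefore count as near Acvr1b.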

How the data were processed

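Whole-testis RNA of 6 libraries was isolated with TRIzol and prepared with a VAHTS mRNA-seq v2 kit, per the labels' protocols. HISAT2 2.0.0 and mm10 are named in the submitters' processing notes. The authors deposited raw counts of reads per Ensembl gene, with symbols, coordinates and gene length, per the file header; for the counting tool, the annotation release and strandedness, nothing is given in the sources used here. Columns were matched to samples by title, and 0 were left over. The members had the same coordinates in GENCODE M21, which gave overlapping genes; promoter windows came from RefSeq (GRCm38.p6). Of the 50-base words of Inha, Inhbb, Acvr2b, Acvr1b, Amh and Amhr2, 0 occur in other genes' transcripts. Acvr2a shares 6.98% of its words with Orc4 and Fst 1.4% with Gm47040. Inhba shares 0.537% with several other genes, and how this bears on its few reads was not tested.

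Genes were filtered with filterByExpr (minimum count 10, minimum total 15), leaving 19320, and compared with edgeR 4.0.16 (TMM, glmQLFit, glmQLFTest, no covariate, threshold 0.05) in R 4.3.3. CPM values are TMM-scaled, errors are SDs over 3 libraries, and 95% intervals come from the quasi-likelihood F. The test was tested on simulated counts with the same spread beyond counting error for every gene. Those counts lack the separation of WT 1 and KO 2, so they do not gauge the test under it. Every pair of libraries differed by more than sampling noise (chi-square per degree of freedom at least 4.31). Deviations of same-numbered libraries correlated at -0.173, -0.0289 and 0.114, which gave no sign of pairing by number. With 3 libraries per group and no label on pairing, these correlations cannot exclude it. Alternatives were other scalings, other filters, DESeq2 1.42.0, voom in limma 3.58.1, a replicate block and each library left out. Leaving out WT 1 and KO 2 together was added after the data were seen.

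Named were the members, the target, 4 genes of smallest p per pathway list, the 4 most abundant Sertoli cell markers and the 2 nearest profiles per member. Orc4, Gm47040, Inhbc, Insl3, Sox9 and Creb1 were added once their values had been seen. The members and lists were chosen with earlier results of these data known.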

Additional observations from a re-analysis of the deposited data

How the results depend on the processing

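In none of the 15 alternatives was a member called, so the count of called members was 0 in each, and Inha, Inhbb, Amh and Amhr2 stayed below 0 and Fst above 0 in every fit that tested them. The count of called genes was 1 with all libraries and 1 with a replicate block (number from the labels), 2 in DESeq2, 50 with no low-count filter, 9 without WT 1 and KO 2, and 1 to 3 with 1 library left out; the causes were not tested. With the replicate block Amhr2 was at -0.24 and Inhbb at -0.22 (log2). No call changed under the block.

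Values near 0 changed sign with single libraries, the cause of which was not tested. Leaving out each library in turn, the log2 fold change ran from -0.17 to 0.16 for Acvr2a, -0.26 to 0.13 for Acvr2b, -0.01 to 0.05 for Acvr1b, -0.14 to 0.27 for Fstl3, -0.000889 to 0.09 for Bmpr1a, -0.27 to 0.03 for Ccnd2, -0.08 to 0.01 for Cst9, -0.22 to 0.07 for Polr3g, -0.08 to 0.20 for Zfp426, -0.02 to 0.04 for Rab3gap2, -0.03 to 0.06 for Rbbp4 and -0.02 to 0.17 for Orc4. Rab3gap2 was at -0.01 with library size alone, and without WT 1 and KO 2 Fstl3 was at -0.08 and Rbbp4 at -0.00202. The ratios ran from -0.12 to 0.04 for Inhbb to Inha, -1.0 to 0.16 for Inhba to Inha, -0.88 to 0.22 for Inhba to Inhbb, -0.18 to 0.43 for Acvr2a to Acvr2b, -0.16 to 0.20 for Acvr1b to Acvr2a and -0.02 to 0.24 for Amhr2 to Amh with 1 library left out. Without WT 1 and KO 2 the first 3 were 0.03, 0.46 and 0.43. Depth limits Inhba and Fst, with 1 to 25 reads per library.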
